A study of Homo sapiens with 12 samples.

Results

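In colorectal cancer cells, 9 protein-coding genes had low array signal in untreated HCT116 and high signal in both untreated SW48 and untreated RKO: CCND2, TXNIP, GSTA4, PRTFDC1, QNG1, PLBD1, SCCPDH, PCDHB13 and CHIC1. They were chosen by their measured values from 11730 protein-coding genes that had a probe set of their own. The mean log2 signal of the untreated arrays had to be at most 5.0 in HCT116 and at least 7.5 in both SW48 and RKO. Genes of several large families, picked out by the start of the symbol (among them solute carriers, keratins and homeobox genes), were to be left out, and 0 genes were lost that way. The same limits with SW48 as the low line gave 23 genes, and with RKO as the low line 22 genes.

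The series holds 12 arrays (Affymetrix, Human Gene 2.0 ST), 2 for each of 6 groups: HCT116, SW48 and RKO cells after 8 h in 10 µM Nutlin-3a, and the same lines untreated. All 3 are established colorectal cancer cell lines, and the labels call each of them wild type for p53. Nutlin-3a is a small molecule that keeps MDM2 from binding p53, which stabilizes p53 and raises transcription of its target genes. The labels speak of duplicates and do not say that these were separate cultures, so the p-values below measure only the spread between these samples, which may be technical. The extraction text speaks of thyroids and the growth text of HCT116 alone, so thyroid markers were read on every array. The 6 measured thyroid markers had median log2 signals of 5.13 in HCT116, 5.12 in SW48 and 4.96 in RKO (untreated cells), and the 15 measured intestinal epithelial markers medians of 6.29, 6.75 and 6.05 in the same order. Each array averages over all cells of its sample, so fewer cells with a transcript and less of it per cell cannot be told apart. Of 21 measured p53 target genes, 20 rose with Nutlin-3a in HCT116, 20 in SW48 and 18 in RKO, and 0 fell. Arrays of the same group correlated at 0.9964 to 0.9974 across all 37270 probe sets.

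Cyclin D2 (CCND2) drives cells through G1 by activating CDK4 and CDK6. TXNIP is an alpha-arrestin that binds thioredoxin and restrains glucose uptake, and GSTA4 is a glutathione S-transferase that clears the lipid peroxidation product 4-hydroxynonenal. PRTFDC1 is a homolog of the purine salvage enzyme HPRT1, and QNG1 frees the base queuine from queuosine nucleotide so that it can be put back into transfer RNA. PLBD1 belongs to the phospholipase B domain proteins, SCCPDH is a saccharopine dehydrogenase-like protein, PCDHB13 is a clustered beta protocadherin that mediates cell adhesion, and CHIC1 is a membrane-associated protein with a cysteine-rich hydrophobic domain whose role is little known.

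The starts of the genes also differ, and the windows below show the range. Each runs from 250 bases before to 50 bases after the gene's start, 5′ to 3′ on the gene's own strand, in GRCh38.p14 as given by RefSeq. The window of 8 of the 9 genes was read, all but that of CCND2. The CpG dinucleotides are in capitals, since most broadly used genes start in a CpG-dense stretch and the first window is dense in CpG while the last is not. SCCPDH (chr1:246724159-246724458, plus strand) had 43 CpG, PRTFDC1 (chr10:24952557-24952856, minus strand) had 40, and PCDHB13 (chr5:141213669-141213968, plus strand) had 10.
SCCPDH: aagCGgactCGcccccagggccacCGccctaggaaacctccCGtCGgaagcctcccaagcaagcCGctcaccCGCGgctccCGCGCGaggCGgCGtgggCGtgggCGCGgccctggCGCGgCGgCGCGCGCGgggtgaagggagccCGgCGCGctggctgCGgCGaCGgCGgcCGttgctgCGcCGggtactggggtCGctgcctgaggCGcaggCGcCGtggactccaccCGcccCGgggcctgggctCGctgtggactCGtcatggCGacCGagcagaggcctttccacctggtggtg
PRTFDC1: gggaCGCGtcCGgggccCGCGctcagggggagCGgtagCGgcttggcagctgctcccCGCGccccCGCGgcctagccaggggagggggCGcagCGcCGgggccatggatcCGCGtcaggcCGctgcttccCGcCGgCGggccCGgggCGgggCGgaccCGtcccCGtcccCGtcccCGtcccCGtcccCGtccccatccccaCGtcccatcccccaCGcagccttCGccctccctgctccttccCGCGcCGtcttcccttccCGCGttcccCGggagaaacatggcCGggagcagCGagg
PCDHB13: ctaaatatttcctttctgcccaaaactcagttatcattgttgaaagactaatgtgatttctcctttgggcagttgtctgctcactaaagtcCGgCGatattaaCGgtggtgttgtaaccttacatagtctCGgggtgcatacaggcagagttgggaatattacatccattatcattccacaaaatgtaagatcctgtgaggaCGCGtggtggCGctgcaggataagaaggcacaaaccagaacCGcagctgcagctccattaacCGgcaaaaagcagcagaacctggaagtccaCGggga

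In between lay QNG1 (chr9:83956693-83956992, minus strand) with 27 CpG, TXNIP with 19, PLBD1 (chr12:14567834-14568133, minus strand) with 18, CHIC1 (chrX:73562898-73563197, plus strand) with 15 and GSTA4 (chr6:52995235-52995534, minus strand) with 14. A window was called CpG-rich when its GC content was at least 50% and its CpG count at least 0.6 of the number its base composition predicts. By that measure 6 of the 8 genes (75%) were CpG-rich, against 69.2% of the 9559 measured protein-coding genes with a window. PLBD1 and PCDHB13 were not: PLBD1 missed the CpG limit at 0.595, and PCDHB13 had a GC content of 46.3%. The median CpG count was 18.5 for the 8 genes and 24 for all 9559. The windows of the genes spanned from CpG-poor to very CpG-dense, as the plot of promoter composition shows.

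**Figure D1:**
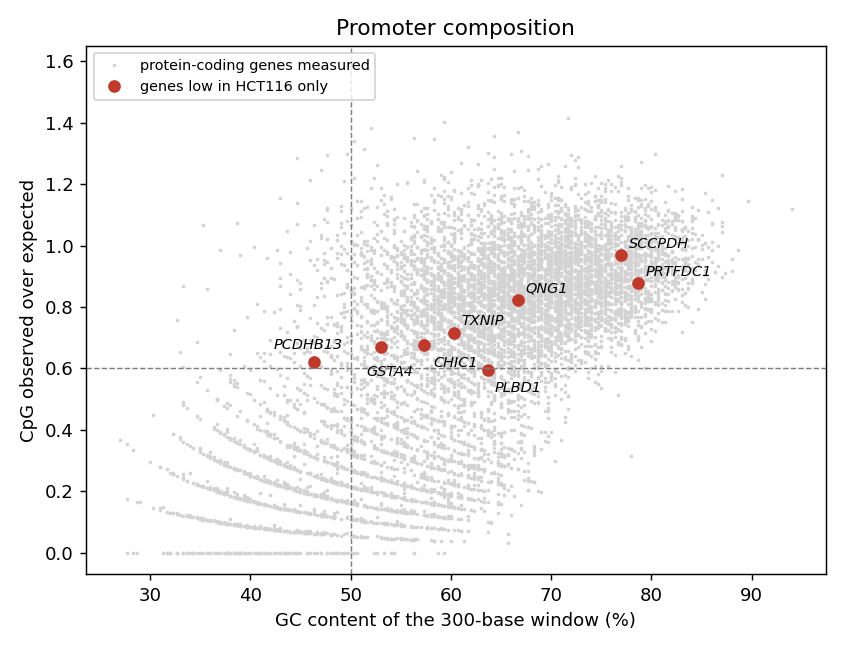
GC content (x axis, %) and ratio of observed to expected CpG (y axis) of the 300-base promoter windows of 9559 measured protein-coding genes (grey) and of the 8 genes with a window that are low in HCT116 only (red). Dashed lines mark the limits of 50% GC and 0.6, and the red points run from PCDHB13 at 46.3% GC to PRTFDC1 at 78.7% GC.

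The promoter of TXNIP carries a recognisable element. TXNIP is a textbook target of the glucose-sensing factor MondoA (the product of MLXIP) with its partner MLX, which bind paired CACGAG or related hexamers with 5 bases between them. The pattern of CACGAG, any 5 bases and CACGAG again, searched on both strands, occurred in 2 of the 9559 windows (0.0209%), those of TXNIP and KCTD5. This pattern leaves out the related hexamers, which were not searched, and its share is given as a description. In TXNIP (chr1:145996530-145996829, minus strand, GRCh38.p14) its first base lies 88 bases before the start, and it is in capitals here.
TXNIP: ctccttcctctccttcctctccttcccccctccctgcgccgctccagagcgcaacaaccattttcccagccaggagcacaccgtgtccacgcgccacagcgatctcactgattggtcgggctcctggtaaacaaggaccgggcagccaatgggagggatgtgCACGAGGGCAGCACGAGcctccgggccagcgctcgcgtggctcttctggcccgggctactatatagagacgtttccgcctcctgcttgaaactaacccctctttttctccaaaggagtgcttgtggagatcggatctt

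Other motifs were read in the same windows on both strands. CACGTG was found in PLBD1 alone, and in 9.10% of all windows. CCAAT was found in 2 of the 8 windows (TXNIP and GSTA4) and in 36.1% of all, and CCGCCC in 3 of 8 (SCCPDH, PRTFDC1 and CHIC1) and in 63.1% of all. TATAAA was in 0 of 8 and in 8.04% of all, TGACGTCA in 0 of 8 and in 2.73% of all, and the half-site consensus of p53 in 0 of 8 and in 5.89% of all. A match or its lack describes only the letters of the window.

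The difference between the lines was wide for each gene. The gap between the HCT116 mean and the lower of the SW48 and RKO means in untreated cells, which the choice of the genes used and which is given as a description, was 6.51 log2 units for PRTFDC1 (91.2-fold) and 6.48 for SCCPDH. It was 5.51 for QNG1, 4.99 for PLBD1, 4.97 for TXNIP, 4.43 for PCDHB13, 3.82 for CCND2, 3.55 for CHIC1 and 2.90 for GSTA4 (7.46-fold). An array gives some signal also where no transcript is present. In untreated HCT116 the 9 group means ran from 3.39 to 4.89 with a median of 4.19, and 21.6% of all measured protein-coding genes lay at or below 5. A set of 19 markers of thyroid, fibroblast, immune and endothelial cells had a median of 4.68 in the same arrays, with a range of 3.18 to 8.56. That upper end was CD68, which was high in all 3 lines (8.56 in HCT116, 8.59 in SW48 and 10.5 in RKO), and the 95th percentile of the set was 6.47. The values do not show that the 9 genes were above background in HCT116, nor that no transcript was present. Where a gene was at background there, its gap and fold are lower bounds, and since probe sets differ in background and affinity the order of the gaps is not an order of transcript differences.

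The genes nearest to each limit were these. Just inside the HCT116 limit were CHIC1 at 4.89, TXNIP at 4.84 and CCND2 at 4.76, and just outside it EFNA5 at 5.18, AGMAT at 5.28 and PCDHB14 at 5.29. Just inside the limit for SW48 and RKO were GSTA4 at 7.55, PCDHB13 at 7.85 and CHIC1 at 8.44, each by its lower line. Of the 15 genes that failed on SW48 alone, the nearest were ZNF844 at 6.81 and ZNF253 at 6.73, with DCLK1 next and far off at 5.40. Of the 18 that failed on RKO alone, ERAP2 was close at 7.43, followed by CROT at 6.48 and GSAP at 6.29. A limit of 4.5 in HCT116 kept 5 of the genes (PRTFDC1, SCCPDH, QNG1, PLBD1 and PCDHB13), and a limit of 5.5 gave 15.

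**Figure D2:**
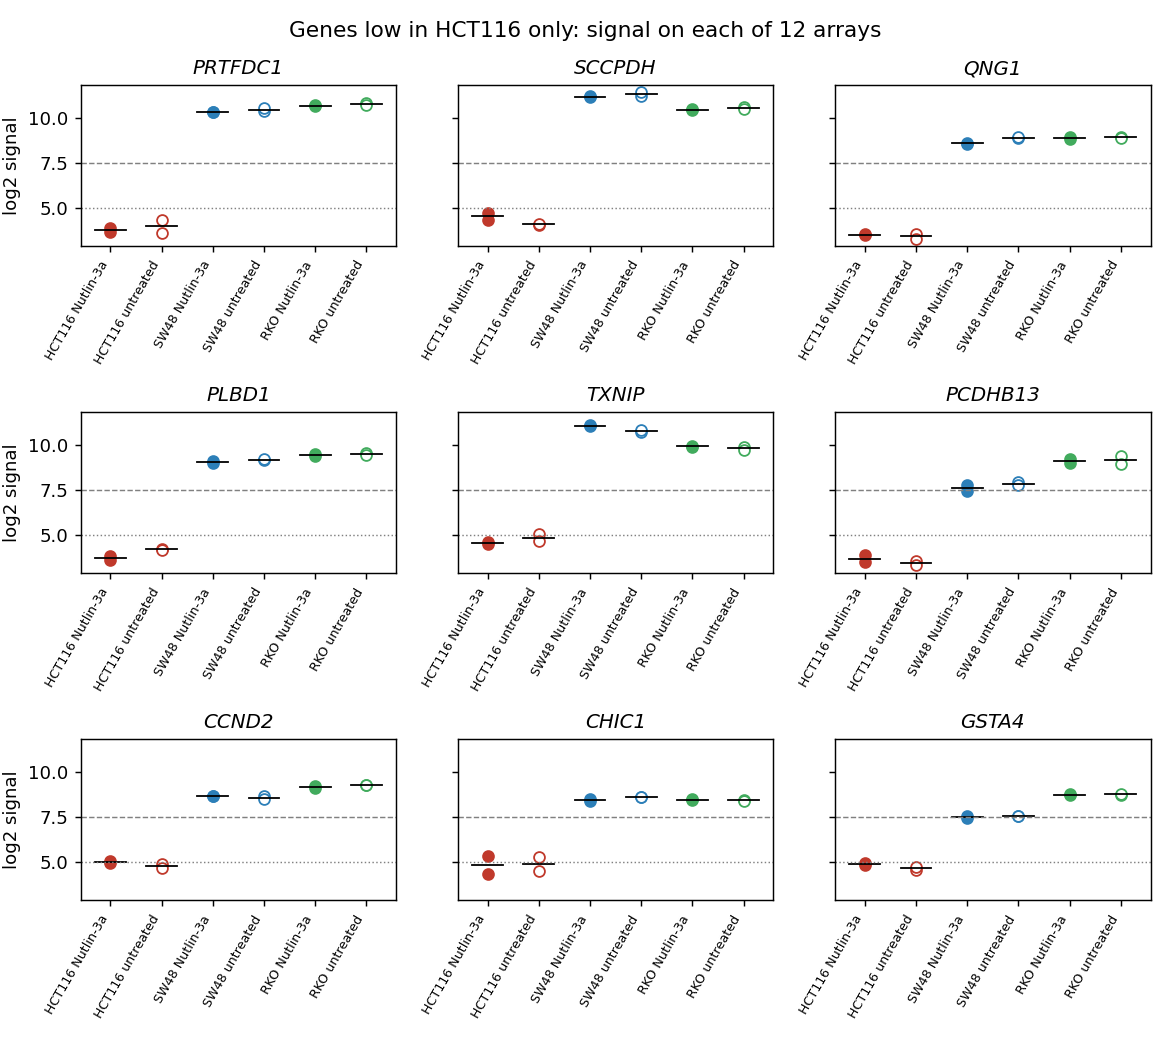
Log2 signal (y axis) of the 9 genes on all 12 arrays, by line and treatment (x axis). Points are single arrays, filled for Nutlin-3a and open for untreated, black bars are group means, and the dotted and dashed lines are the limits of 5.0 and 7.5; in every panel the 4 HCT116 points lie below the 8 points of SW48 and RKO.

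The Nutlin-3a arrays were not used to choose the genes, so the difference between lines was tested on them. In limma, with p-values adjusted by Benjamini-Hochberg over all 14118 named genes, all 9 genes were lower in HCT116 than in SW48 (background 22.1% of genes, and 44.5% in either direction) and all 9 lower in HCT116 than in RKO (background 21%, and 39.6% in either direction). The difference from SW48 ran from -2.59 ± 0.081 (SE) for GSTA4 to -6.67 ± 0.12 for SCCPDH, and the difference from RKO from -3.65 ± 0.30 for CHIC1 to -6.93 ± 0.088 for PRTFDC1 (log2, 2 arrays a group). With HCT116 signals this low, these are differences of signal and lower bounds for any gene at background in HCT116; the SE covers only the spread between arrays. The highest of these 18 adjusted p-values was 0.000136, for CHIC1 against RKO. The limits themselves were met on the Nutlin-3a arrays by 8 of the 9 genes, and GSTA4 missed them with an SW48 mean of 7.4988.

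SW48 and RKO, the lines with the higher signal, also differed from each other. On the Nutlin-3a arrays 2 genes were higher in SW48 than in RKO (background 19.6%), SCCPDH by 0.73 ± 0.12 and TXNIP by 1.15 ± 0.071. Of the 9 genes, 6 were lower in SW48 (background 22.6%, and 42.1% in either direction): PCDHB13 by -1.51 ± 0.16, GSTA4 by -1.25 ± 0.081, CCND2 by -0.50 ± 0.072, PLBD1 by -0.38 ± 0.099, PRTFDC1 by -0.37 ± 0.088 and QNG1 by -0.29 ± 0.073 (log2 ± SE, limma). The calls of PLBD1, PRTFDC1 and QNG1 did not hold without SW48 Nutlin-3a replicate 1, where their adjusted p-values were 0.0606, 0.0589 and 0.0946. PLBD1 and PRTFDC1 also missed the threshold without SW48 replicate 2 (0.103 and 0.0681), PRTFDC1 without RKO replicate 1 (0.0609), and PLBD1 and QNG1 without RKO replicate 2 (0.102 and 0.0898). CHIC1 was not called, with a difference of -0.0012 and a 95% interval of -0.72 to 0.71. That interval uses 1 spread shared by the lines, to which HCT116 (SD 0.74) gave far more than SW48 (0.084) and RKO (0.036).

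With Nutlin-3a, 1 of the 9 genes passed the test in 1 line. In HCT116 1 gene fell and 0 rose among the 9, in SW48 and in RKO 0 passed the test in either direction, and the calls over the whole table were 5.11% of genes in HCT116 (3.08% higher and 2.03% lower), 3.12% in SW48 (1.38% and 1.74%) and 2.02% in RKO (1.23% and 0.793%). For the mean effect of SW48 and RKO, 0 of the 9 genes were called, against 5.94% of all genes (2.42% higher and 3.53% lower), with 2 at an unadjusted p under 0.05 (QNG1 and TXNIP; 21.7% of all genes). At an unadjusted p under 0.05 there were 5 genes in HCT116 (CCND2, GSTA4, PLBD1, SCCPDH and TXNIP), 2 in SW48 (QNG1 and TXNIP) and 0 in RKO, against 19.6%, 16.2% and 16.9% of all genes. The median log2 fold change of the 9 genes was 0.10 in HCT116, -0.13 in SW48 and -0.06 in RKO, against -0.01, -0.01 and -0.01 for all genes tested. The untreated arrays chose the genes and also enter these fold changes, so a chance low value in untreated HCT116 or a chance high value in untreated SW48 or RKO would shift them upward in HCT116 and downward in the other lines.

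The intervals give a range for each change of signal, from 1 estimate of spread per gene shared by all lines. They do not bound a change of transcript where the signal is at background. Where duplicates vary more in HCT116, the HCT116 interval may be too narrow. No gene's 95% interval in HCT116 reached beyond -0.75 or 0.71 log2 units, in SW48 beyond -0.81 or 0.56, and in RKO beyond -0.65 or 0.71. CHIC1, the gene with the widest spread between duplicates, set most of these bounds. Its SD in HCT116 was 0.57 untreated and 0.74 with Nutlin-3a. In SW48 and RKO its SD was at most 0.084, so its bounds there carry the HCT116 spread. Without CHIC1 the bounds were -0.66 and 0.71 in HCT116, -0.64 and 0.55 in SW48 and -0.54 and 0.36 in RKO. The test of the difference between the HCT116 effect and the mean effect of SW48 and RKO called 0 of the 9 (background 0.212%), with 6 at an unadjusted p under 0.05, as were 13.5% of all genes. The F test that the 3 effects are equal called 0 as well (background 0.503%, lowest adjusted p 0.19), with 6 at an unadjusted p under 0.05, as were 14.3% of all genes. These counts carry the shift from the choice of the genes that is described above.

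**Figure D3:**
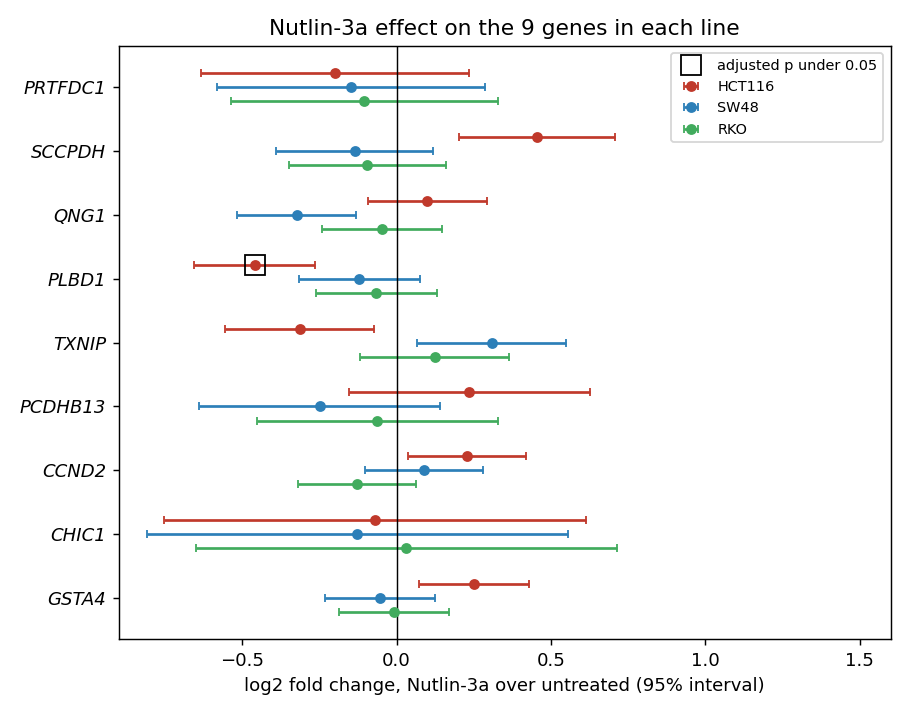
Log2 fold change of Nutlin-3a over untreated (x axis) for the 9 genes (y axis) in HCT116 (red), SW48 (blue) and RKO (green), with 95% intervals from limma. The square marks the one call, PLBD1 in HCT116 at -0.46; the points of SW48 and RKO lie between -0.32 and 0.31.

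CCND2 had log2 signals of 4.93 and 5.05 on the HCT116 Nutlin-3a arrays, against 4.86 and 4.66 on the untreated ones. In SW48 it had 8.67 and 8.67 with Nutlin-3a, against 8.67 and 8.49 untreated, and in RKO 9.13 and 9.22 with Nutlin-3a, against 9.30 and 9.30 untreated. The treated arrays were slightly above the untreated in HCT116 and slightly below them in RKO. The change was 0.23 ± 0.085 in HCT116 (adjusted p = 0.173, limma) and missed the threshold in all 3 lines. A second probe set of CCND2, not used, gave 4.96 with Nutlin-3a and 5.09 untreated in HCT116, 5.69 and 5.74 in SW48, and 6.17 and 5.98 in RKO (means), a much smaller contrast between lines, and the mean of both probe sets would not meet the limits.

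The other genes of the cyclin D step were all above 5 in HCT116. Cyclin D1 (CCND1) averaged 10.8 with Nutlin-3a and 10.9 untreated in HCT116, its kinase partners CDK4 11.8 and 11.8, and CDK6 9.79 and 9.86. Cyclin D3 (CCND3) averaged 6.23 and 6.41, below the 95th percentile of the 19 markers of other tissues (6.45 and 6.47). On the Nutlin-3a arrays CCND1 was higher in HCT116 than in RKO by 0.52 (adjusted p = 0.000989, limma), and CCND3 was lower than in RKO by -0.79 (adjusted p = 0.000215). CDK6 was higher than in SW48 by 1.40 and lower than in RKO by -0.56. CDK4 was higher than in SW48 by 0.49 (adjusted p at most 0.00174 for these kinase differences, limma). The other differences of these genes from SW48 and RKO were not called. CCND2 lies next to TIGAR, a p53 target that lowers glycolytic flux. TIGAR rose with Nutlin-3a by 1.18 in HCT116, 1.08 in SW48 and 1.23 in RKO (SE 0.078 each, adjusted p at most 6.1e-05), while CCND2 was called in none of the lines.

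TXNIP had 4.58 and 4.47 on the HCT116 Nutlin-3a arrays, against 5.01 and 4.66 untreated. SW48 had 11.05 and 11.11 with Nutlin-3a, against 10.72 and 10.83 untreated, and RKO 9.91 and 9.96 with Nutlin-3a, against 9.88 and 9.74 untreated. Treated arrays lay below the untreated in HCT116 and above them in SW48 and RKO, with no overlap in any line. The changes were -0.31 ± 0.11 in HCT116 (adjusted p = 0.140), 0.31 ± 0.11 in SW48 (adjusted p = 0.183) and 0.12 ± 0.11 in RKO (adjusted p = 0.630), and their difference, HCT116 minus the mean of SW48 and RKO, was -0.53 ± 0.13 (adjusted p = 0.155, limma). None passed the test, although the HCT116 change (adjusted p = 0.0459) and the difference (0.0382) did so when limma's prior was made robust and allowed to follow intensity.

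ARRDC4, the alpha-arrestin most like TXNIP and also a known MondoA target, was lower in HCT116 too. It had 7.89 and 8.08 on the HCT116 Nutlin-3a arrays, against 6.93 and 7.29 untreated. It averaged 9.70 with Nutlin-3a and 9.30 untreated in SW48, and 9.62 with Nutlin-3a and 9.69 untreated in RKO. On the Nutlin-3a arrays HCT116 was lower than SW48 by -1.72 ± 0.089 and lower than RKO by -1.64 ± 0.089 (adjusted p = 1.5e-05 and 2.0e-05, limma), which is far less than the differences of TXNIP, -6.56 and -5.41. ARRDC4 rose with Nutlin-3a in HCT116 by 0.87 ± 0.11 (adjusted p = 0.00195), where TXNIP did not pass the test, and the test of its difference between HCT116 and the other lines gave an adjusted p of 0.0978. ARRDC3 rose in HCT116 by 0.28 (adjusted p = 0.0434). The sensors were measured in all lines: MLX averaged 11.5 with Nutlin-3a and 11.5 untreated in HCT116, and MLXIP 8.50 and 8.57. MLXIPL, which encodes the related factor ChREBP, averaged 7.85 and 7.63. On the Nutlin-3a arrays the HCT116 minus SW48 and HCT116 minus RKO differences of MLXIP were 0.16 and -0.01, with no call. MLX was higher than in SW48 by 0.27 (adjusted p = 0.0151, limma) and differed from RKO by -0.15 with no call. MLXIPL was lower than in SW48 by -0.54 (adjusted p = 0.00294) and higher than in RKO by 1.47 (3.4e-05). For thioredoxin (TXN) the differences were -0.02, with no call, and -0.45 (adjusted p = 0.00133, limma).

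GSTA4 had 4.97 and 4.84 on the HCT116 Nutlin-3a arrays, against 4.57 and 4.74 untreated. SW48 had 7.58 and 7.42 with Nutlin-3a, against 7.57 and 7.54 untreated, and RKO 8.75 and 8.76 with Nutlin-3a, against 8.73 and 8.79 untreated. The SW48 and RKO arrays overlapped between treatments, and the HCT116 arrays did not. The HCT116 change of 0.25 ± 0.080 missed the threshold (adjusted p = 0.115, limma). Of the 15 other measured glutathione S-transferases, 5 were lower and 0 higher in HCT116 than in SW48, and 6 lower and 1 higher than in RKO (Nutlin-3a arrays, backgrounds as above). The transferases lower than both were GSTM4, GSTP1 and GSTT1, of which GSTT1 stood at -2.29 and -2.34. None of the 15 passed the Nutlin-3a test in any line, and several alpha and mu class genes are near-identical copies whose probes may share signal. A wider list of glutathione and redox genes, without GSTA4 and TXNIP, holds 54 genes and includes these 15. Of the 54, 17 were lower and 11 higher than in SW48, and 17 lower and 8 higher than in RKO (backgrounds 22.1%, 22.4%, 21% and 18.7%).

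PRTFDC1 had 3.64 and 3.86 on the HCT116 Nutlin-3a arrays, against 4.33 and 3.56 untreated. SW48 had 10.32 and 10.30 with Nutlin-3a, against 10.39 and 10.53 untreated, and RKO 10.70 and 10.66 with Nutlin-3a, against 10.85 and 10.72 untreated. The HCT116 duplicates overlapped between treatments, with the 2 untreated arrays further apart than the 2 treated ones. The change in HCT116 was -0.20 ± 0.19 (adjusted p = 0.642, limma); without HCT116 untreated replicate 2 it was -0.58 with an adjusted p of 0.0320, and without untreated replicate 1 it was 0.18 (0.523), so its sign turned on a single array. HPRT1, the purine salvage enzyme it resembles, had means of 9.38 with Nutlin-3a and 9.49 untreated in HCT116, and its differences from SW48 (0.01) and RKO (-0.21) were not called. APRT, which salvages adenine, was higher in HCT116 by 0.61 and 0.55 (adjusted p = 0.000803 and 0.00157).

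QNG1 had 3.46 and 3.52 on the HCT116 Nutlin-3a arrays, against 3.52 and 3.26 untreated. SW48 had 8.53 and 8.62 with Nutlin-3a, against 8.89 and 8.91 untreated, and RKO 8.82 and 8.91 with Nutlin-3a, against 8.94 and 8.89 untreated. In SW48 both treated arrays were below both untreated ones. The SW48 change was -0.32 ± 0.086 (adjusted p = 0.0843, limma); without either of the HCT116 untreated arrays, which only add to the estimate of spread, it was called with an adjusted p of 0.0429. The genes of the tRNA transferase that inserts queuine were measured well above the low range in HCT116: QTRT1 averaged 8.82 with Nutlin-3a and 8.72 untreated, and QTRT2 8.88 and 8.93. QTRT1 was lower in HCT116 than in SW48 and RKO by -0.58 and -0.59, and QTRT2 was higher by 0.32 and 0.55 (adjusted p at most 0.0205). QTRT2 fell with Nutlin-3a in RKO by -0.36 (adjusted p = 0.0436, limma).

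PLBD1 was the one gene called with Nutlin-3a. It had 3.84 and 3.61 on the HCT116 Nutlin-3a arrays, against 4.20 and 4.17 untreated. SW48 had 9.10 and 9.02 with Nutlin-3a, against 9.16 and 9.19 untreated, and RKO 9.36 and 9.51 with Nutlin-3a, against 9.56 and 9.44 untreated. PLBD1 fell in HCT116 by -0.46 ± 0.087 (adjusted p = 0.0161, limma), a change between values that both lie under the limit of 5, as do those of 22.1% of measured protein-coding genes on the HCT116 Nutlin-3a arrays. The call was lost without HCT116 untreated replicate 1 (adjusted p = 0.111), untreated replicate 2 (0.0720) or Nutlin-3a replicate 2 (0.108), and in a fit of the 4 HCT116 arrays alone (0.0927). PLBD2, its closest relative, a lysosomal protein, averaged 9.32 with Nutlin-3a and 9.16 untreated in HCT116 and was lower than in SW48 by -0.95 and than in RKO by -0.65 (adjusted p at most 0.000275).

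SCCPDH had 4.33 and 4.70 on the HCT116 Nutlin-3a arrays, against 4.05 and 4.08 untreated. SW48 had 11.15 and 11.22 with Nutlin-3a, against 11.21 and 11.43 untreated, and RKO 10.42 and 10.48 with Nutlin-3a, against 10.59 and 10.50 untreated. Both treated HCT116 arrays were above both untreated ones and still more than 5 log2 units below any SW48 or RKO array. The change of 0.46 ± 0.11 had an adjusted p of 0.0507 (limma), just above the threshold. It was called under quantile normalization (0.0427), with each array centred on its median (0.0473), with an intensity trend and robust prior (0.00659), with dim genes left out (0.0375), with a replicate block (0.0426) and without HCT116 Nutlin-3a replicate 1, where it was 0.64 (adjusted p = 0.0132). Without Nutlin-3a replicate 2 it was 0.27 (adjusted p = 0.244), and without untreated replicate 1 or 2 the adjusted p was 0.212 or 0.155. AASS, the lysine-degrading enzyme that carries the other saccharopine dehydrogenase domain, averaged 7.13 with Nutlin-3a and 6.89 untreated in HCT116 and was lower than in SW48 by -0.52 and than in RKO by -2.89.

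PCDHB13 had 3.86 and 3.45 on the HCT116 Nutlin-3a arrays, against 3.51 and 3.33 untreated. SW48 had 7.76 and 7.45 with Nutlin-3a, against 7.94 and 7.76 untreated, and RKO 9.20 and 9.02 with Nutlin-3a, against 9.39 and 8.96 untreated. The HCT116 pairs and the RKO pairs overlapped between treatments, and no change was called (0.23 ± 0.17 in HCT116, -0.25 ± 0.17 in SW48, -0.06 ± 0.17 in RKO). Beta protocadherins are single-exon genes in a row on chromosome 5, many of them near-identical copies, so probes may take up signal from each other and single values are uncertain. Of the 15 other measured beta protocadherins, 11 were lower in HCT116 than in SW48 and 12 lower than in RKO, 10 were lower than both, and 0 were higher (Nutlin-3a arrays; backgrounds 22.1% and 21% lower, 10.4% of protein-coding genes lower than both). PCDHB14, the next gene in the row, differed by -2.67 ± 0.13 from SW48 and -3.72 ± 0.13 from RKO. Some of the 10 were dim in every line. With Nutlin-3a, PCDHB15 averaged 3.77 in HCT116, 4.14 in SW48 and 4.09 in RKO, and PCDHB7 3.93, 4.34 and 4.34.

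Most of the family was low in HCT116. Of the 15 other genes, 13 were at or below 5 in untreated HCT116, against 9 in SW48 and 6 in RKO; of all measured protein-coding genes 21.6%, 22.6% and 23.4% were at or below 5. In RKO PCDHB2 averaged 8.77 with Nutlin-3a and 8.50 untreated and PCDHB8 8.34 and 8.37, and both were below 5 in the other lines. RKO was not the highest line throughout: untreated PCDHB12 averaged 6.17 in SW48 and 5.65 in RKO, and PCDHB9 6.25 in SW48 and 5.75 in RKO. Of the 15, 2 passed the test with Nutlin-3a: PCDHB14 rose in HCT116 by 0.65 ± 0.16 (adjusted p = 0.0489), with 5.82 and 6.06 on the treated arrays, against 5.03 and 5.54 untreated, and PCDHB15 fell in RKO by -0.45 (adjusted p = 0.0234). The 28 other measured protocadherins of all kinds include these 15. Among the 28, 11 were lower and 3 higher in HCT116 than in SW48 (backgrounds 22.1% and 22.4%). Against RKO 13 were lower and 1 higher (21% and 18.7%). The 11 lower than SW48 were all beta protocadherins, and so were the 10 lower than both lines. Of the 28, 21 were at or below 5 in untreated HCT116, 17 in SW48 and 14 in RKO. A gene that is low in every line can hardly show a difference between lines, so the other protocadherins were not shown to differ from the beta genes.

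**Figure D4:**
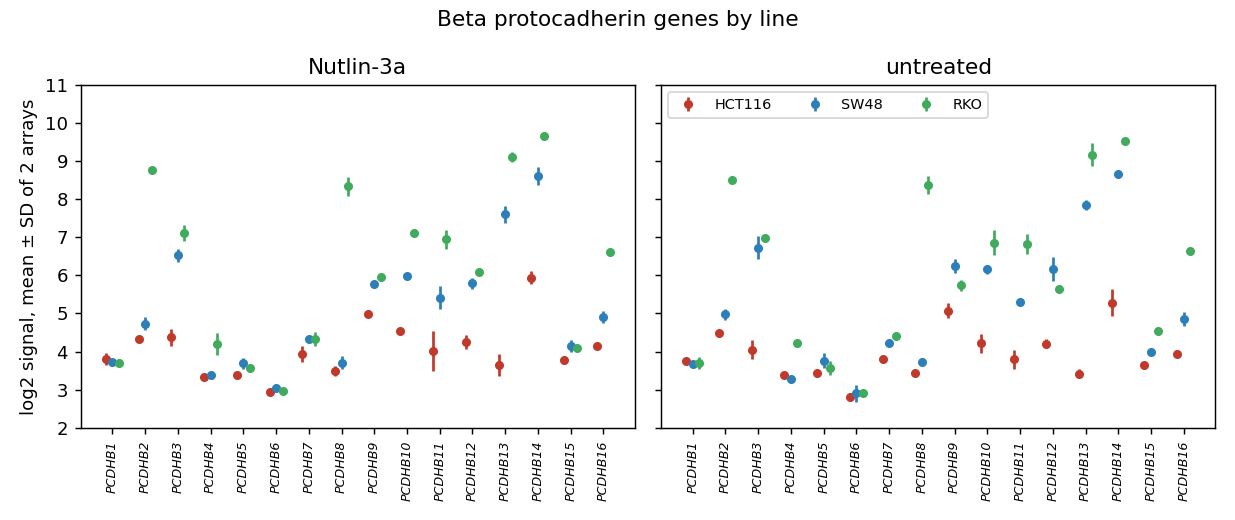
Log2 signal (y axis, mean ± SD of 2 arrays) of the 16 measured beta protocadherin genes (x axis) in HCT116 (red), SW48 (blue) and RKO (green), with Nutlin-3a on the left and untreated on the right. PCDHB13 stands at 3.66 in HCT116, 7.60 in SW48 and 9.11 in RKO with Nutlin-3a.

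CHIC1 was the least steady of the 9. It had 5.35 and 4.30 on the HCT116 Nutlin-3a arrays, against 5.29 and 4.49 untreated. SW48 had 8.53 and 8.41 with Nutlin-3a, against 8.59 and 8.61 untreated, and RKO 8.45 and 8.50 with Nutlin-3a, against 8.46 and 8.42 untreated. In each HCT116 pair one array lay above 5 and one below, so without HCT116 untreated replicate 2 the gene would not meet the limit, and neither would TXNIP. The HCT116 change was -0.07 ± 0.31 (adjusted p = 0.938, limma). Its paralog CHIC2 averaged 9.22 with Nutlin-3a and 9.07 untreated in HCT116 and was lower than in SW48 by -0.26 (adjusted p = 0.0420) and than in RKO by -0.99 (0.000142).

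Relatives and partners of the genes in the small families were all measured above 5 in each untreated line. Glutathione S-transferases and beta protocadherins are not in this set, and 6 and 13 of their 15 other genes were at or below 5 in untreated HCT116. The set holds 19 genes (cyclin D and its kinases, alpha-arrestins and thioredoxins, phosphoribosyltransferases, queuine transferase, PLBD2, CHIC2 and AASS). Of these 19, 0 were at or below 5 in untreated HCT116, 0 in SW48 and 0 in RKO. The shares of measured protein-coding genes were 21.6%, 22.6% and 23.4%, so this is a trait of the set and not of HCT116. On the Nutlin-3a arrays 8 were lower and 6 higher in HCT116 than in SW48 (backgrounds 22.1% and 22.4%), and 9 lower and 5 higher than in RKO (21% and 18.7%). Lower than both were 6 (AASS, ARRDC1, ARRDC4, CHIC2, PLBD2 and QTRT1; background 10.4%).

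The genes did not lie together. In the RefSeq gene order (GRCh38.p14) 0 pairs had 3 or fewer protein-coding genes between them; the pairs on one chromosome were CCND2 and PLBD1, with 160 genes between them, and SCCPDH and TXNIP, with 888. The nearest measured protein-coding gene on each side was then read on the Nutlin-3a arrays. Of these 18 neighbours, 6 were lower in HCT116 than in both other lines (CRACR2A, CILK1, PCDHB12, PCDHB14, ARHGAP21 and THNSL1), against 10.4% of all measured protein-coding genes (1222), and 1 was higher (AHCTF1). With the protocadherins left out it was 4 of 16.

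Outside the protocadherin cluster, the differences of the neighbours lay between -1.14 and 0.34. Around PRTFDC1, ARHGAP21 differed by -0.44 from SW48 and -0.82 from RKO, and THNSL1 by -0.47 and -1.14, where PRTFDC1 differed by -6.56 and -6.93. SCCPDH, at -6.67 and -5.93, sits beside AHCTF1, which was higher in HCT116 by 0.26 and 0.34. QNG1, at -5.09 and -5.38, sits beside HNRNPK, an RNA-binding protein gene with a mean of 12.1 in HCT116 and differences of 0.17 and 0.24, of which the second was called (adjusted p = 0.0274). TIGAR, beside CCND2, was lower than in RKO by -0.76 (adjusted p = 0.000215, limma) and not called against SW48. In the protocadherin cluster PCDHB12 differed by -1.54 and -1.85 and PCDHB14 by -2.67 and -3.72, where PCDHB13 differed by -3.94 and -5.45.

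**Figure D5:**
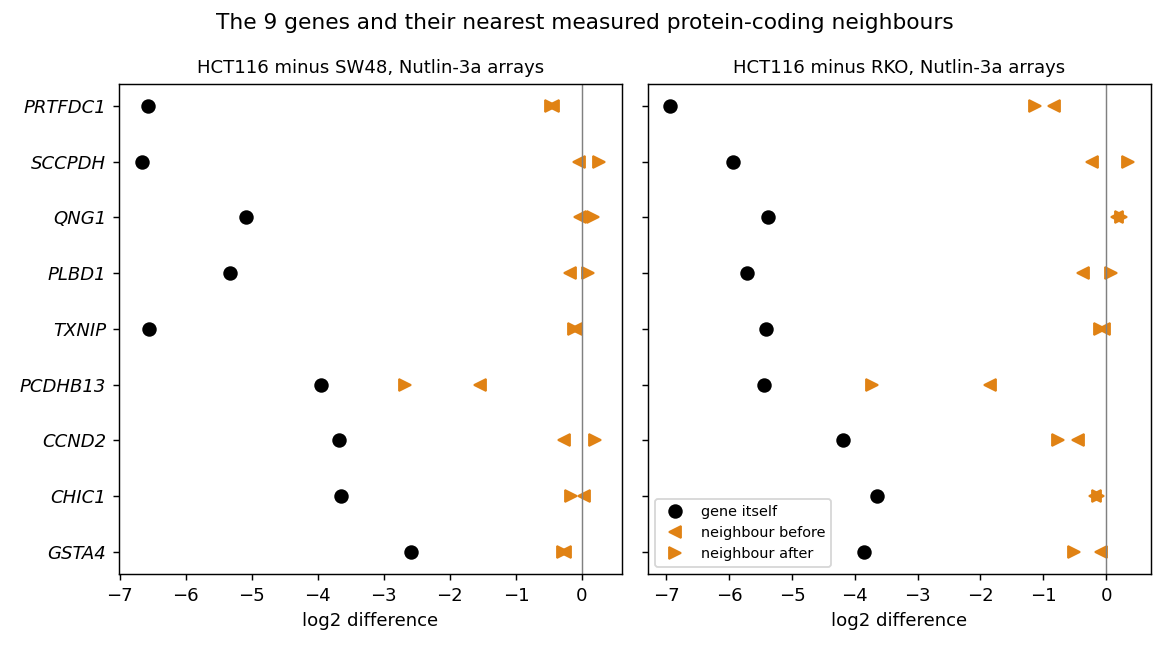
Log2 difference on the Nutlin-3a arrays (x axes), HCT116 minus SW48 on the left and HCT116 minus RKO on the right, for the 9 genes (black points) and the nearest measured protein-coding gene before and after each (orange triangles; y axis, genes by size of the untreated gap). The neighbours lie between -1.14 and 0.34 except PCDHB12 and PCDHB14 beside PCDHB13, which reach -3.72.

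For genes low in one of the other lines, the Nutlin-3a calls were these. Of the 23 genes low in SW48 only, GPR63 and ZNF551 fell in HCT116 and in RKO and 0 passed the test in SW48, where they are low. Of the 22 genes low in RKO only, PLK2, a p53 target, rose by 1.27 in HCT116 and 0.58 in SW48, HOOK1 fell in SW48, and ACSL5 rose by 0.59 in RKO, where these genes are low. Of all genes tested, 5.11% were called in either direction in HCT116, 3.12% in SW48 and 2.02% in RKO. The untreated arrays also chose both sets, so chance values could shift changes upward in the low line and downward in the other lines. The falls of GPR63, ZNF551 and HOOK1 and the rise of ACSL5 lie in that direction, and the rises of PLK2 do not. No test of a difference between these sets was made.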

How the data were processed

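Total RNA of 12 samples was hybridised to Affymetrix Human Gene 2.0 ST arrays, 1 sample an array. The authors deposited one table of processed values. Its range of 2.22 to 13.5 shows log2 values, a base that is inferred here, and per the submitters' processing notes GCOS was used; no label or header names the background correction, summarization, normalization or build. Array medians ran from 4.97 to 5.05, and no further normalization was applied. GEO's platform annotation named 1 gene for 14530 of 37270 probe sets (39.0%), giving 14118 genes, 11730 of them protein-coding by RefSeq; a gene with several probe sets took the one with the highest mean.

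Nutlin-3a effects were tested with limma 3.58.1 (R 4.3.3) in 1 model of 6 group means over all 12 arrays, and lines were compared on the 6 Nutlin-3a arrays alone, since the untreated arrays had chosen the genes. All p-values were adjusted by Benjamini-Hochberg over 14118 genes and called under 0.05. In data simulated for the HCT116 contrast on 14118 genes, 49 of 50 changes of -1, 48 of 50 of 1, 29 of 50 of -0.5 and 34 of 50 of 0.5 were called, with 12 false calls. The changes were put into genes drawn at random, with normal noise of 1 spread per gene in all lines. The rates therefore do not hold for the 9 genes, which are dim in HCT116 and may vary more there. Promoter windows and gene order are from RefSeq. The number of arrays limits the precision. Named genes are all 9 genes, those nearest to each limit, gene families with a member and nearest neighbours. The genes and the gene lists were chosen with earlier results of these data known, and the small families after the 9 genes were known. A planned comparison with olfactory and taste receptors had 0 named probe sets, so markers of other tissues took its place. Alternatives were other normalizations, priors, filters, probe set rules, thresholds, a replicate block and leaving out arrays.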

Additional observations from a re-analysis of the deposited data

How the results depend on the processing

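There were 27 other settings, 12 of which leave out an array, and each result was read only under those that apply to it. Nutlin-3a effects and their differences had 20 or 21 alternatives, and line differences on the Nutlin-3a arrays had 15. Under these, 0 of the 27 called differences changed sign. Of the 45 uncalled ones, 14 did under some setting (among them CHIC1 in HCT116, -0.59 to 0.45, and PRTFDC1, -0.58 to 0.18). All 9 genes stayed lower in HCT116 than in SW48 and in RKO under each setting run. The number of genes chosen was 5 with a limit of 4.5 in HCT116, 15 with a limit of 5.5, and 7 to 10 without a single array. In HCT116, 1 gene (SCCPDH) was called higher with Nutlin-3a under quantile normalization, median centring, an intensity trend with robust prior, the filter on dim genes and the replicate block, and 0 to 1 without a single array. Called lower in HCT116 were 2 (PLBD1 and TXNIP) with the trend and robust prior, 0 at an adjusted p under 0.01, 0 with only the 4 arrays of the line, and 0 to 2 without a single array, where leaving out HCT116 untreated replicate 2 called PRTFDC1 and TXNIP (-0.49, adjusted p = 0.0342) and not PLBD1. In SW48 0 to 1 were called lower without a single array (QNG1). With the trend and robust prior, the mean effect of SW48 and RKO called 1 higher (TXNIP), the difference of effects 1 higher (SCCPDH) and 1 lower (TXNIP), and the F test 2. Between SW48 and RKO, 3 were called lower at an adjusted p under 0.01 and 3 to 6 without a single array, and PRTFDC1 was lost with all 12 arrays in 1 model (adjusted p = 0.154). The causes were not tested. Replicate numbers gave no pairing: the deviations of same-numbered arrays correlated at -0.127 to 0.055 over 15 pairs of groups, and the replicate block changed no other call of the 9 genes. Over the whole table, genes called higher and lower with Nutlin-3a numbered 435 and 286 in HCT116 (150 to 685 and 58 to 543 over the settings), 195 and 246 in SW48 (75 to 301 and 40 to 569), and 173 and 112 in RKO (31 to 311 and 0 to 449), the lowest with only the 4 arrays of the line and the highest with the trend and robust prior. The difference of effects called 19 and 11 (2 to 85 and 0 to 36), the F test 71 (12 to 288), and the mean effect 341 and 498 (166 to 446 and 120 to 997). HCT116 signals near 4 lie in the dim range of the array, which limits how well a change there can be measured.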

Other observations

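The same limits were applied to features outside the protein-coding genes. None of the 1359 measured long noncoding RNA genes (0) and 0 of 611 microRNA genes were low in HCT116 alone. Among the 22740 probe sets with no gene symbol here, 2 showed the pattern for HCT116, against 8 for SW48 and 14 for RKO. As shares of protein-coding genes, the counts were 0.0767% for HCT116, 0.196% for SW48 and 0.188% for RKO.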
